A study of Mus musculus with 9 samples.

Results

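The lysosome is described here through 45 mouse genes that encode its membrane proteins, its luminal enzymes and its proton pump, in HPC7 cells that carried mutant Snai1, wild-type Snai1 or an empty vector. The genes were chosen by name, with earlier results of these data known. Counts of them set beside the share of all tested genes are therefore descriptions, not tests of the list. The mouse symbol of each gene was matched to the Entrez identifier of the deposited count table. All 45 were found among the 27179 identifiers of the table. By role they were 9 membrane proteins and transporters, 10 proteases, 12 glycosidases and sulfatases, 8 lipid enzymes and luminal helper proteins, and 6 subunits or accessory proteins of the proton pump.

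Lysosomes are the acidic compartments in which cells break down proteins, glycans and lipids taken up from outside or delivered by autophagy. A vacuolar ATPase pumps protons into the lumen, soluble hydrolases reach it mostly on mannose 6-phosphate receptors, and heavily glycosylated proteins line its membrane. In blood cells lysosomes are most prominent in macrophages and other myeloid cells. Many lysosomal genes share a promoter element with a CACGTG core that is bound by the transcription factor TFEB and its relatives TFE3 and MITF.

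HPC7 cells are immature blood progenitors of the mouse that need stem cell factor to grow. They were kept in RPMI with 10% FCS, this factor at 100 ng/ml and 2-mercaptoethanol at 0.05 mM. The cells of every group received a murine stem cell virus (MSCV) vector in which an internal ribosome entry site precedes green fluorescent protein (GFP). The insert was cDNA of mutant Snai1, with phenylalanine replaced by alanine at residue 5, cDNA of wild-type Snai1, or no gene, with 3 libraries per group, and GFP-positive cells were sorted 1 week after transduction. Snai1 is a zinc finger repressor that binds the E-box CACCTG and recruits the histone demethylase Lsd1 through its first residues, and the labels state that the substitution impairs Lsd1 binding.

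The deposited values are raw counts of TruSeq stranded mRNA libraries, with totals from 18332451 to 20860314 per library. Levels are given as CPM, counts divided by a library size scaled with TMM and set to the standard scale of that unit, on which 3 counts, the upper limit that a count of 0 allows, corresponded to 0.144 to 0.161 CPM. Snai1 measured 471, 415 and 493 CPM in mutant Snai1 libraries and 425, 488 and 562 CPM in wild-type Snai1 libraries, against 1.06, 0.722 and 0.698 CPM in empty vector libraries, so it was high in both Snai1 groups and low in the other, as labelled. These counts include the vector's own transcript and do not tell mutant from wild-type Snai1. The log2 fold change of mutant over wild type was -0.10 (SE 0.11), which did not pass edgeR's quasi-likelihood test with Benjamini-Hochberg adjustment (adjusted p 0.479). All 14 progenitor markers of HPC7 had a mean above 10 CPM in at least 1 group. Kit, the receptor for stem cell factor, measured 3387 to 3722, 3241 to 3643 and 3565 to 3684 CPM in mutant, wild-type and empty vector libraries. In 1 empty vector library, replicate 1, a single identifier without a gene name took 3.62% of all counts, against at most 1.02% for the leading gene of the other libraries. The labels do not say whether the libraries of a group came from separate transductions, so the spread behind each p-value is that of the libraries and may be technical.

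Promoter windows are shown for 4 genes that differed between wild-type Snai1 and empty vector and hold the letters TCACGTG. These windows run from 250 bases before to 50 bases after an annotated transcript start, and their sequences are from RefSeq on GRCm38.p6. Gla (alpha-galactosidase A, chrX:134600956-134601255, minus strand) and Ctsd (cathepsin D, chr7:142387778-142388077, minus strand) each hold 2 copies of CACGTG. Their first bases lie 227 and 194 bases before the start in Gla, and 245 and 98 bases before it in Ctsd. In Lgmn (legumain, chr12:102439043-102439342, minus strand) the copy lies 49 bases before the start, and in Gaa (acid alpha-glucosidase, chr11:119267713-119268012, plus strand) it lies 140 bases before it. The Gaa window also holds CACCTG, 52 bases before the start. Lgmn has a further annotated window without any CACGTG, chr12:102439679-102439978, which holds the 5′ end of the gene at 102439728. The Lgmn window shown thus belongs to a start inside the gene. Sequences run 5′ to 3′ on the strand of the gene, with the motifs in capitals together with a T before or an A after CACGTG.
Gla: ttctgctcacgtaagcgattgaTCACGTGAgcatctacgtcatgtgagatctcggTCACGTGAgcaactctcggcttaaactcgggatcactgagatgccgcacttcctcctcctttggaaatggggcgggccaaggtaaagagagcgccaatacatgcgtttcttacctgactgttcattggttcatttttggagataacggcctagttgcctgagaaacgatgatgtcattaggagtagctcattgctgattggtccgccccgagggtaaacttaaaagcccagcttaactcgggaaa
Ctsd: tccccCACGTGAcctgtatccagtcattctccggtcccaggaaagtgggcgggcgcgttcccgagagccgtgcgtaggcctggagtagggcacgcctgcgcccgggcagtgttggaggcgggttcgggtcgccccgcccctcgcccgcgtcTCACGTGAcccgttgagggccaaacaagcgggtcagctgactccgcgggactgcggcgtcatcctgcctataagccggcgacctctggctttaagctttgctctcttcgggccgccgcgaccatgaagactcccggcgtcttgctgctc
Lgmn: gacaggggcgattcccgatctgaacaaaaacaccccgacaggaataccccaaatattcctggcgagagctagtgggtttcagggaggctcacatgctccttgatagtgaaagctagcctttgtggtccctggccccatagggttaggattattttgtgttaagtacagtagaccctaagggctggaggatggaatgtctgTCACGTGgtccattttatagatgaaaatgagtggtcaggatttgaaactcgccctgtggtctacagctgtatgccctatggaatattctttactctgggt
Gaa: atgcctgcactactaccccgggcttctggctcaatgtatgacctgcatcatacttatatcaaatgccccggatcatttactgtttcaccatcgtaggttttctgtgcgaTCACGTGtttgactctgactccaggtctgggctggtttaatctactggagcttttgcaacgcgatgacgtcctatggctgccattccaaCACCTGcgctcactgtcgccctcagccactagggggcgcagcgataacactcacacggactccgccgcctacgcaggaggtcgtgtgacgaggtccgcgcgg

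Windows were matched for 38 of the 45 genes. The letters TCACGTG, on either strand, were present for 12 of these 38 genes (31.6%), against 7.11% of 9568 tested genes with a window and 4.29% of all 27025 genes in the promoter table. Among the lysosomal genes that were called higher with wild-type Snai1, 10 of 23 with a window held it (43.5%), against 2 of 13 (15.4%) among the tested lysosomal genes not called higher. Only these 23 of the 29 genes called higher had a window, and the split was not counted for all tested genes. A gene counted if any of its windows held the letters. For Ctsa, as for Lgmn, the window at the 5′ end of the gene did not. The shorter CACGTG, which includes every TCACGTG, was present for 13 of 38 genes, against 11.8% of tested genes. The Snail E-box CACCTG was present for 9 of 38 genes (23.7%), against 20.3% of tested genes, and for 3 of 23 of the genes called higher and 5 of 13 of the others. These are matches of letters, not measured binding.

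Of the 45 genes, 42 passed the filter on low counts and were tested together with all other genes, 12484 in total. With wild-type Snai1, 29 of the 42 lysosomal genes rose over empty vector, 2 fell (Man2b1 and Galc) and 11 did not pass the test at an adjusted p of 0.05, in edgeR's quasi-likelihood test with Benjamini-Hochberg adjustment over all tested genes. Of all tested genes, 25.2% rose and 24.3% fell in the same comparison. Their median log2 fold change was 0.46, and that of all tested genes was -0.00. A rise of at least 2-fold was called for 7 lysosomal genes (6.73% of all tested genes), and a fall of that size for none (5.73%): Cd68, Npc1, Ctss, Ctsd, Lgmn, Ctsb and Gla. All wild-type libraries were above all empty vector libraries for 31 of the 42 (28.1% of all tested genes), and all were below for 2 (28.5%). In these bulk samples more cells of a type and more RNA per cell cannot be told apart.

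With mutant Snai1, 0 of the 42 rose and 0 fell over empty vector in the same test, where 0.00801% of all tested genes, Snai1 alone, were called. Without adjustment, 4 lysosomal genes had a p under 0.05 (Galc, Neu1, Ctss and Gaa), against 4.83% of all tested genes. DESeq2 called 1 of them (Galc, lower) and limma-voom 0. The median log2 fold change was 0.03, the range was -0.37 for Galc to 0.53 for Ctss, and 40 of 42 estimates lay within 0.25 of 0, with standard errors of 0.05 to 0.26. All mutant libraries were above all empty vector libraries for 10 of the 42 (8.53% of all tested genes) and below them for 3 (9.04%). Mutant over wild-type Snai1, the direct comparison of both inserts, gave 29 lower genes, 1 higher gene (Man2b1) and 12 that did not pass, against 24.5% lower and 23.4% higher among all tested genes. The median was -0.39, and 7 were lower by at least 2-fold (6.62% of all tested genes) and none higher (5.34%). All mutant libraries were below all wild-type libraries for 31 genes and above them for 2, against 27.5% and 28.3% of all tested genes. Of the 29 genes that rose with wild-type Snai1, 27 were also lower in mutant over wild-type libraries, and the others were Cd63 and Atp6v1b2. This overlap was not counted over all tested genes, so it is not shown to be particular to the lysosomal genes. The comparisons share libraries in pairs, so they are not independent of each other.

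**Figure D1:**
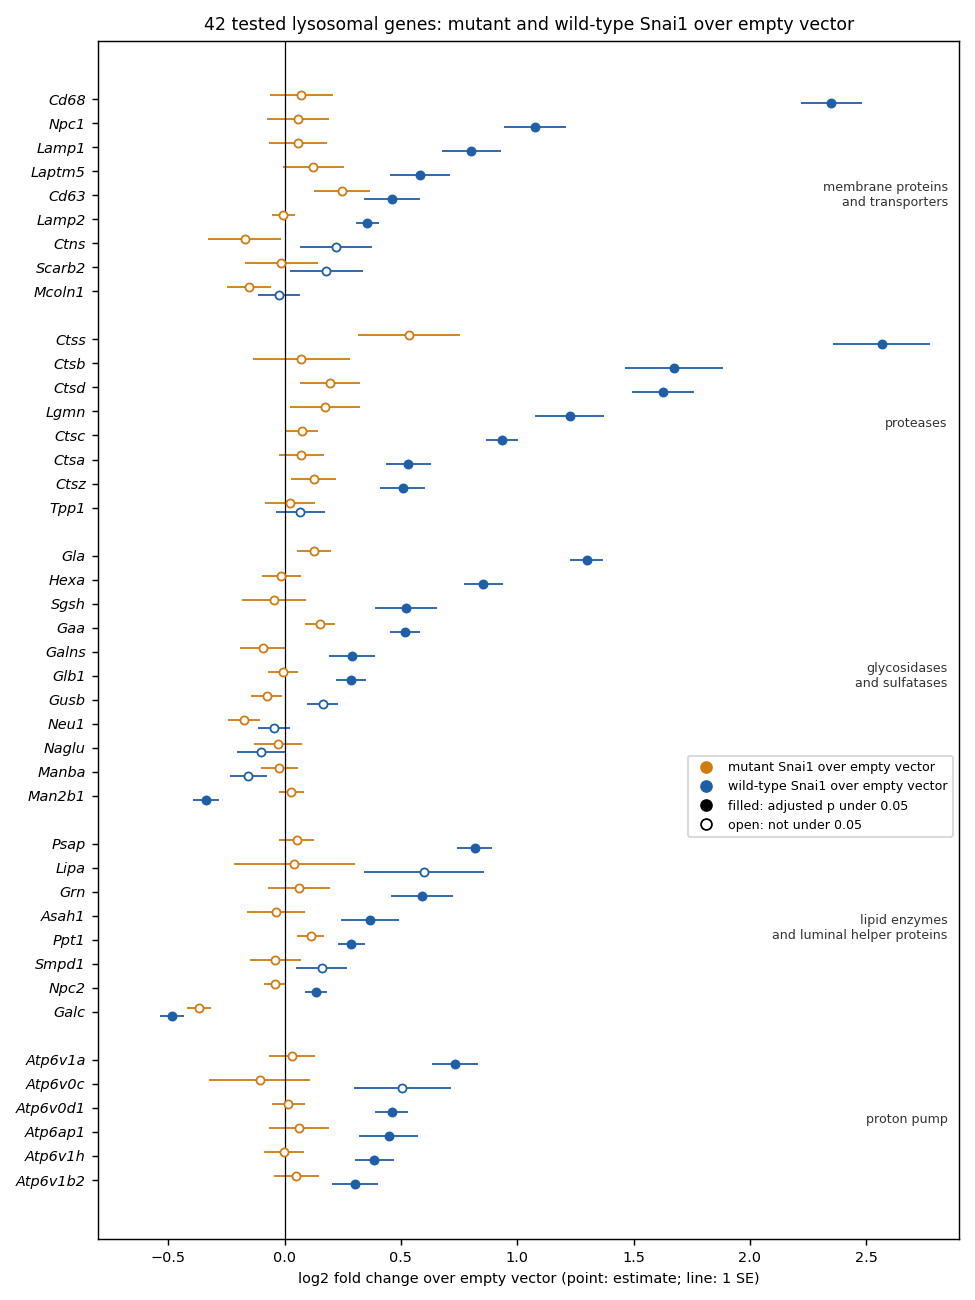
Log2 fold change over empty vector (horizontal axis, point and 1 SE) of the 42 tested lysosomal genes, by role, for mutant Snai1 (orange) and wild-type Snai1 (blue); filled points had an adjusted p under 0.05. For mutant Snai1, 40 of 42 estimates lie within 0.25 of 0 and none is filled, while 29 wild-type points are filled to the right and 2 (Man2b1 and Galc) to the left.

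Among the membrane proteins and transporters, 6 of 9 rose with wild-type Snai1 (25.2% of all tested genes) and none fell (24.3%). The median log2 fold change was 0.46. Cd68, a glycoprotein of late endosomes and lysosomes that is widely used as a macrophage marker, measured 10.7, 9.53 and 11.5 CPM in mutant libraries and 51.5, 43.4 and 59.1 CPM in wild-type libraries, against 9.04, 11.03 and 10.1 CPM in empty vector libraries. All wild-type libraries lay above all others, and mutant and empty vector libraries overlapped. The log2 fold change of wild type over empty vector was 2.35 (SE 0.13, adjusted p 3.76e-07, edgeR quasi-likelihood), and that of mutant over wild type was -2.28 (SE 0.13, adjusted p 5.02e-07). Npc1, which exports cholesterol from the lysosome, measured 43.0, 43.6 and 41.1 CPM with the mutant and 108, 70.6 and 79.5 CPM with the wild type, against 40.8, 39.6 and 42.3 CPM with empty vector. Its wild-type libraries again stood clear of the rest, and wild type over empty vector was 1.07 on the log2 scale (edgeR adjusted p 1.08e-04, SE 0.13). Reads of Npc1 may include those of Rmc1, a gene that overlaps it.

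Lamp1 and Lamp2, the major structural glycoproteins of the lysosomal membrane, rose by less than 2-fold. Lamp1 measured 293, 278 and 288 CPM in mutant libraries and 603, 412 and 425 CPM in wild-type libraries, against 268, 270.3 and 287 CPM in empty vector libraries, a difference of 0.80 on the log2 scale for wild type over empty vector (edgeR adjusted p 5.39e-04, SE 0.13). Lamp2, which also serves chaperone-mediated autophagy, measured 359, 356 and 358 CPM with the mutant and 470.3, 441 and 467 CPM with the wild type, against 368, 361 and 348 CPM with empty vector, a change of 0.36 (SE 0.05, adjusted p 1.91e-04, edgeR). For both genes every wild-type library was above every other library, and mutant libraries overlapped those with empty vector. Laptm5, a transmembrane protein of blood cell lysosomes, rose by 0.58 and the tetraspanin Cd63 by 0.46 on the log2 scale, and these were 0.38 and 0.29 without wild-type replicate 1. Mutant over wild-type Snai1 was -0.46 for Laptm5, with a log2 value of -0.25 without that library and of -0.44 (adjusted p 0.0534, edgeR) without mutant replicate 3. Mutant libraries of Cd63 (324, 273 and 300 CPM) lay above those with empty vector (261, 259 and 236 CPM) without overlap. By the edgeR test, Cd63 was 0.246 for mutant over empty vector (SE 0.12, unadjusted p 0.0687) and -0.21 for mutant over wild type (adjusted p 0.17). The cystine exporter Ctns (0.22), Scarb2 (0.18), the receptor that carries glucocerebrosidase to lysosomes, and the calcium channel Mcoln1 (-0.02) did not pass the test.

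**Figure D2:**
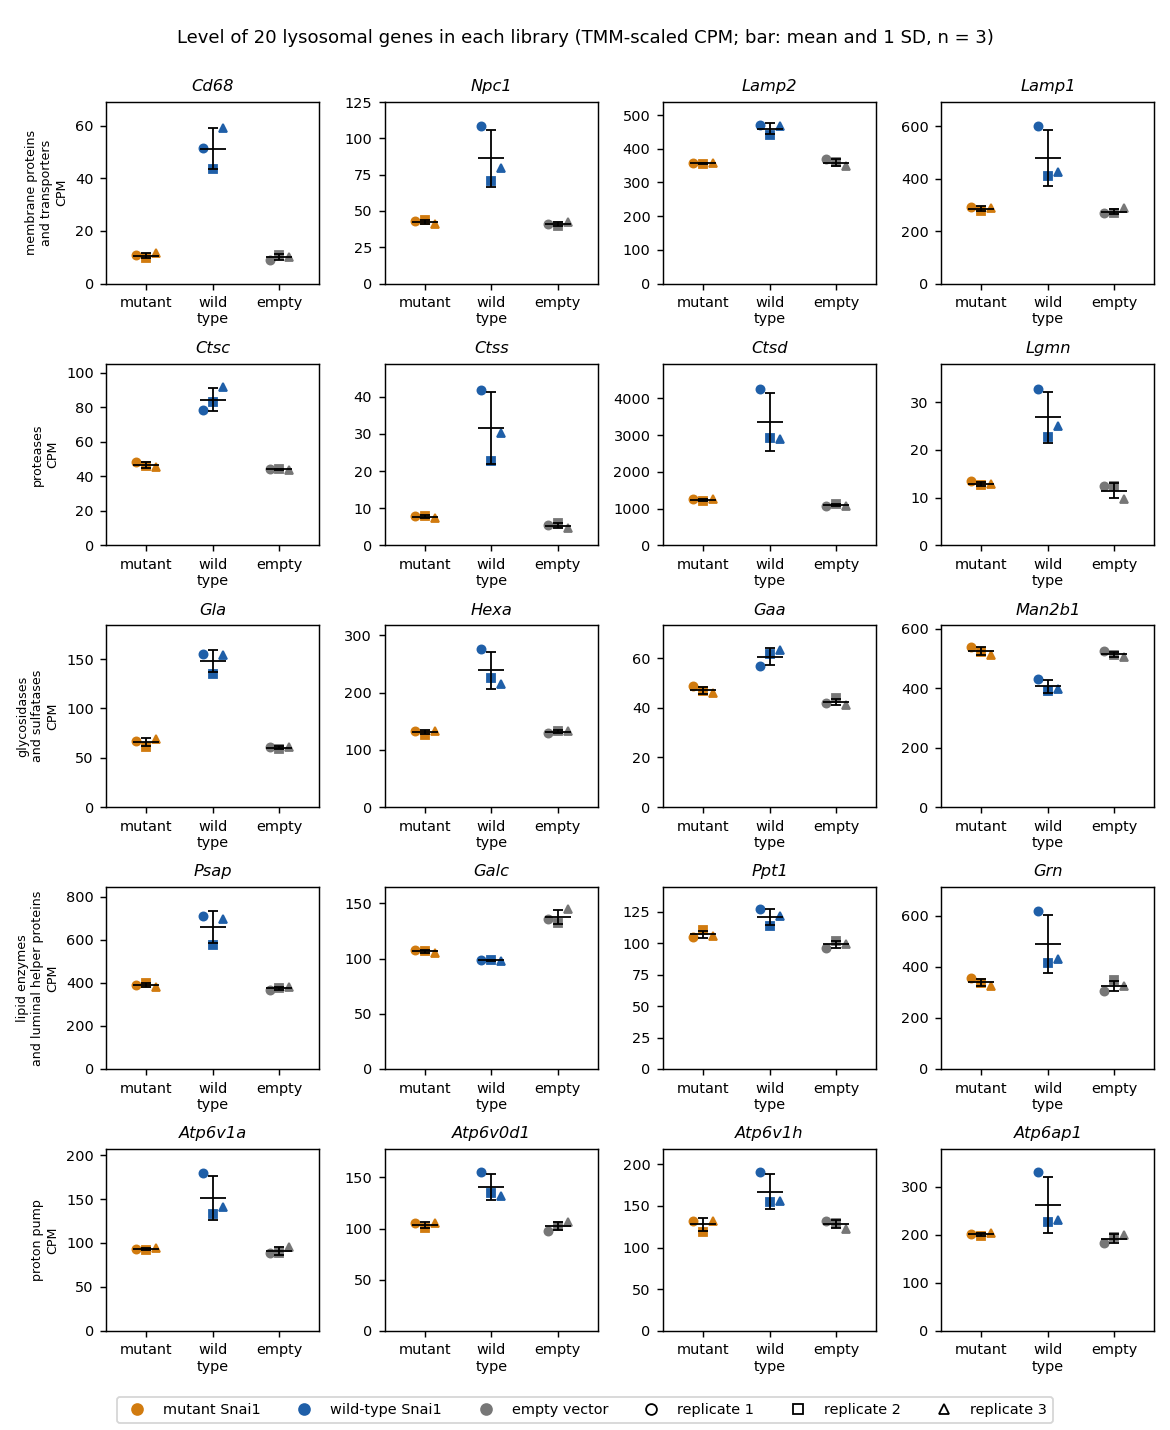
Level in CPM (vertical axes from 0) in each of the 9 libraries for the 4 genes per role with the smallest adjusted p in wild type over empty vector; symbols mark replicate numbers, and bars give the mean and 1 SD of 3 libraries. Wild-type Snai1 libraries lie above all others for 18 of the 20 genes, and below the empty vector libraries for Man2b1 and Galc.

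Proteases had the largest median of the 5 roles, 1.08 on the log2 scale for wild-type Snai1 over empty vector. Of 8 tested proteases, 7 were higher (25.2% of all tested genes) and none lower (24.3%). Ctsd, which encodes the aspartic protease cathepsin D (chromosome 7, 142375910 to 142387827 on GRCm38), measured 1258, 1214 and 1268 CPM in mutant libraries and 4258, 2910.0 and 2905 CPM in wild-type libraries, against 1081, 1119 and 1063 CPM in empty vector libraries. The lowest wild-type library was thus more than 2-fold above every mutant and empty vector library, and the mutant libraries also lay above all empty vector libraries. The log2 fold change was 1.63 for wild type over empty vector (SE 0.13, adjusted p 7.25e-06) and 0.20 for mutant over empty vector (SE 0.13, unadjusted p 0.159), both by the edgeR quasi-likelihood test; without wild-type replicate 1 the mutant value, still 0.20, passed the threshold with an adjusted p of 0.0475.

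Ctss, the cysteine protease cathepsin S that trims the invariant chain in antigen-presenting cells, measured 8.0, 7.78 and 7.36 CPM in mutant libraries and 41.8, 22.7 and 30.3 CPM in wild-type libraries, against 5.37, 5.97 and 4.61 CPM in empty vector libraries. The 3 groups did not overlap, with the mutant between the others. Wild type over empty vector was 2.57 on the log2 scale (SE 0.21, adjusted p 6.65e-06, edgeR), and mutant over empty vector was 0.53 (SE 0.22, unadjusted p 0.0350, adjusted p 0.980, edgeR), the highest estimate among the 42 tested genes in that comparison. Ctsc, cathepsin C, which activates granule serine proteases, measured 48.4, 45.8 and 45.4 CPM with the mutant and 78.6, 83.4 and 91.7 CPM with the wild type, against 44.4, 44.5 and 43.8 CPM with empty vector, a difference of 0.94 on the log2 scale for wild type over empty vector (edgeR adjusted p 2.51e-06, SE 0.07). Lgmn, the asparaginyl endopeptidase legumain, measured 13.4, 12.6 and 12.8 CPM with the mutant and 32.8, 22.6 and 25.1 CPM with the wild type, against 12.4, 12.3 and 9.60 CPM with empty vector, a change of 1.23 (SE 0.15, adjusted p 7.84e-05, edgeR). Both stood clear in all wild-type libraries, and mutant libraries were again slightly above those with empty vector without overlap.

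Ctsb, the cysteine protease cathepsin B, rose by 1.67 on the log2 scale (edgeR adjusted p 2.31e-04, SE 0.21), with means of 163 ± 8.05, 495 ± 179.9 and 155 ± 1.28 CPM in mutant, wild-type and empty vector libraries (SD, n = 3). Ctsa, the protective protein of sialidase and beta-galactosidase, and the carboxypeptidase Ctsz rose by 0.53 and 0.51. Tpp1, a tripeptidyl peptidase, changed by 0.07 and did not pass the test. There was no test for Ctsh and Ctsl, cathepsins H and L, which were listed at 0 in all 9 libraries. Whether these genes were not expressed or their reads were not counted is not known. Reads of Ctsb, Ctsa and Ctsz may include those of genes that overlap them (Fdft1, Neurl2 and Pltp, and Nelfcd).

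The glycosidases and sulfatases moved in both directions. With wild-type Snai1, 6 of 11 tested genes rose (25.2% of all tested genes), 1 fell (24.3%), and the median log2 fold change was 0.29. Gla, which removes terminal galactose from glycolipids and is deficient in Fabry disease, measured 67.0, 61.2 and 68.9 CPM in mutant libraries and 155, 135 and 154 CPM in wild-type libraries, against 60.8, 58.6 and 61.1 CPM in empty vector libraries. Its libraries were close within each group, and wild type over empty vector was 1.30 (SE 0.07, adjusted p 3.61e-07, edgeR). Hexa, the alpha chain of the hexosaminidase deficient in Tay-Sachs disease, measured 133, 127 and 132 CPM with the mutant and 276, 226 and 214 CPM with the wild type, against 129.6, 132 and 134 CPM with empty vector, a difference of 0.85 on the log2 scale for wild type over empty vector (edgeR adjusted p 1.86e-05, SE 0.08). Reads of Hexa may include those of the overlapping Tmem202. Gaa, which degrades glycogen and is deficient in Pompe disease, measured 48.6, 46.7 and 45.8 CPM with the mutant and 56.7, 61.7 and 63.4 CPM with the wild type, against 41.9, 43.7 and 41.2 CPM with empty vector. The wild-type libraries of Gaa were the highest and those with empty vector the lowest, without overlap; wild type over empty vector was 0.52 (SE 0.06, adjusted p 9.43e-05) and mutant over empty vector 0.15 (SE 0.06, unadjusted p 0.0384) by the edgeR test.

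Man2b1, the lysosomal alpha-mannosidase, went the other way. It measured 537, 523 and 511 CPM in mutant libraries and 432, 389 and 397 CPM in wild-type libraries, against 524, 511 and 505 CPM in empty vector libraries. All wild-type libraries were below all others, and on the log2 scale wild type over empty vector was -0.34 (SE 0.05, adjusted p 5.15e-04) and mutant over wild type was 0.37 (SE 0.05, adjusted p 3.17e-04) by the edgeR test. The beta-galactosidase Glb1 and the sulfatases Sgsh and Galns rose by 0.29, 0.52 and 0.29; each of these 3 genes overlaps another annotated gene. The call of Galns was lost without wild-type replicate 2 (0.27) or 3 (0.25) and without empty vector replicate 1 (0.21) or 2 (0.31), and under upper quartile scaling (0.23). Gusb (0.16), Manba (-0.16), Naglu (-0.10) and Neu1 (-0.05) did not pass the test; Gusb passed without wild-type replicate 2, at 0.21, and Manba without wild-type replicate 1, at -0.23, or under upper quartile scaling, at -0.22. In mutant over wild-type libraries Gusb was called lower, at -0.24, and was not without mutant replicate 3, at -0.20. Arsb, arylsulfatase B, was below the filter with 4, 46 and 4 summed counts in mutant, wild-type and empty vector libraries. In the fit without a filter its log2 fold change of wild type over empty vector was 3.34 (SE 0.69, adjusted p 0.00155, edgeR).

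Among the lipid enzymes and luminal helper proteins, 5 of 8 rose with wild-type Snai1 (25.2% of all tested genes) and 1 fell (24.3%). The median was 0.33 on the log2 scale. Psap, the precursor of the saposins that present sphingolipids to their hydrolases, measured 389.5, 398 and 379 CPM in mutant libraries and 712, 575 and 695 CPM in wild-type libraries, against 368, 378 and 379.6 CPM in empty vector libraries. Mutant and empty vector libraries overlapped, and wild type over empty vector was 0.82 (SE 0.08, adjusted p 1.27e-05, edgeR). Grn, the precursor of the granulins, measured 354, 338 and 325 CPM with the mutant and 619, 417 and 431 CPM with the wild type, against 304, 347 and 324 CPM with empty vector, a difference of 0.59 on the log2 scale (edgeR adjusted p 0.00488, SE 0.13). The rise of Grn was 0.38, and its mutant over wild-type value of -0.53 was -0.32, without wild-type replicate 1. Ppt1, a thioesterase that removes palmitate from proteins, measured 105, 110.4 and 106 CPM with the mutant and 127, 114 and 122 CPM with the wild type, against 96.0, 102 and 99.5 CPM with empty vector, a change of 0.29 (SE 0.06, adjusted p 0.00189, edgeR). The groups of Ppt1 did not overlap, with the mutant libraries in the middle, and its reads may include those of the overlapping Cap1.

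Galc, the galactosylceramidase deficient in Krabbe disease, was the only tested lysosomal gene with all libraries of both Snai1 groups below all empty vector libraries. It measured 108, 107 and 105 CPM in mutant libraries and 98.5, 98.6 and 98.1 CPM in wild-type libraries, against 136, 132 and 145 CPM in empty vector libraries. Every wild-type library was below every mutant library. Wild type over empty vector was -0.48 on the log2 scale (SE 0.05, adjusted p 3.17e-05, edgeR). Mutant over empty vector was -0.37 (SE 0.05, unadjusted p 2.58e-05), and its adjusted p was 0.151 when edgeR's quasi-likelihood test used all 9 libraries. The same value passed with an adjusted p of 1.62e-06 in DESeq2, 0.00374 in edgeR on the mutant and empty vector libraries alone, and 0.00220 in edgeR without wild-type replicate 1. Mutant over wild type was 0.12 for Galc (SE 0.05, adjusted p 0.0871, edgeR), which passed under upper quartile scaling, at 0.18.

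The acid ceramidase Asah1 and the cholesterol-binding Npc2 rose with wild-type Snai1 by 0.37 and 0.14. The Asah1 value was 0.17 without wild-type replicate 1, and its call was lost without empty vector replicate 1 (0.38), 2 (0.36) or 3 (0.36), under upper quartile scaling (0.31), without a filter (0.35) and in the fit of only these groups (0.37). Npc2 lost its call without mutant replicate 1 (0.14), wild-type replicate 3 (0.15), or empty vector replicate 1 (0.14), 2 (0.14) or 3 (0.13), and under upper quartile scaling (0.075), without a filter (0.12), in the fit of only these groups (0.14) and with a replicate block (0.14). The acid lipase Lipa (0.60, SE 0.26) and the sphingomyelinase Smpd1 (0.16) did not pass the test. Lipa measured 59.1 CPM in wild-type replicate 1, against 26.9 and 30.8 CPM in the other wild-type libraries and at most 29.0 CPM elsewhere; it passed without wild-type replicate 2, at 0.81, and with all libraries in DESeq2, at 0.61 over empty vector and -0.57 for mutant over wild type. In mutant over wild-type libraries, Npc2, Ppt1 and Asah1, at -0.18, -0.18 and -0.40, were called lower. Npc2 was not called under upper quartile scaling, at -0.11. Asah1 was -0.21 without wild-type replicate 1, and without mutant replicates 1, 2 and 3 in turn it was not called, at -0.42, -0.39 and -0.39, nor in the fit of only these groups, at -0.39. Ppt1 was not called without mutant replicate 1 (-0.16) or 3 (-0.16) or wild-type replicate 3 (-0.18), nor under upper quartile scaling (-0.11), without a filter (-0.16), in the fit of only these groups (-0.16) or with a replicate block (-0.18).

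Of the proton pump genes, 5 of 6 rose with wild-type Snai1 (25.2% of all tested genes) and none fell (24.3%). Estimates ran from 0.30 to 0.73, with a median of 0.45 on the log2 scale. Atp6v1a, the catalytic subunit of the cytosolic V1 part, measured 93.4, 91.9 and 93.9 CPM in mutant libraries and 180.0, 133 and 141 CPM in wild-type libraries, against 88.6, 88.7 and 95.9 CPM in empty vector libraries. The log2 fold change of wild type over empty vector was 0.73 (SE 0.10, adjusted p 1.69e-04, edgeR). Atp6v0d1, which couples V1 to the membrane part V0, measured 105, 101 and 105 CPM with the mutant and 156, 135 and 132 CPM with the wild type, against 98.1, 102 and 107 CPM with empty vector, a change of 0.46 (SE 0.07, adjusted p 3.60e-04, edgeR). For both subunits the wild-type libraries were clear of all others, and mutant libraries overlapped those with empty vector.

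Atp6v1h, a regulatory V1 subunit, measured 132, 119 and 132 CPM in mutant libraries and 191, 155 and 156 CPM in wild-type libraries, against 132, 129 and 123 CPM in empty vector libraries, a change of 0.39 on the log2 scale (SE 0.08, adjusted p 0.00354, edgeR). Atp6ap1, an accessory protein of pump assembly, measured 201, 197 and 204 CPM with the mutant and 330.3, 226 and 230.2 CPM with the wild type, against 182, 195 and 199 CPM with empty vector, a change of 0.45 (SE 0.13, adjusted p 0.0153, edgeR). In both genes replicate 1 was far above the other wild-type libraries. For Atp6ap1 the change was 0.25 without that library, and the call was lost without empty vector replicate 1, at 0.40. Atp6v1b2, a nucleotide-binding V1 subunit, rose by 0.30, which was 0.16 without wild-type replicate 1, and its call was lost without empty vector replicate 1 (0.28), 2 (0.30) or 3 (0.32), under upper quartile scaling (0.24) and in the fit of only these groups (0.30). Atp6v0c, the proton-carrying ring subunit, was at 2.10 to 4.33 CPM in all libraries and its change of 0.51 did not pass (edgeR adjusted p 0.0677); it passed without empty vector replicate 2, at 0.71. A near copy, Atp6v0c-ps2, held up to 3085 counts in a library, so the reads of Atp6v0c are uncertain.

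In mutant over wild-type libraries the pump genes ran from -0.70 to -0.25 on the log2 scale. Of the 6, 5 were called lower, against 24.5% of all tested genes. Atp6ap1, at -0.39, was -0.18 and called without wild-type replicate 1, and not called without mutant replicate 1 (-0.39), 2 (-0.37) or 3 (-0.40) or empty vector replicate 3 (-0.39), under upper quartile scaling (-0.32), without a filter (-0.37) or in the fit of only these groups (-0.37). Atp6v0c, at -0.61, was not called without mutant replicate 2 (-0.60), mutant replicate 3 (-0.53) or wild-type replicate 1 (-0.47), or under upper quartile scaling (-0.55). Atp6v1b2, at -0.25, did not pass with all libraries but did without wild-type replicate 2 (-0.33) or 3 (-0.32) and in DESeq2 (-0.26). In the other roles, 5 membrane genes, 7 proteases, 7 glycosidases and sulfatases, and 5 lipid enzymes and helper proteins were called lower in this comparison. Some genes were not called with all libraries but were in another setting: Ctns (-0.39) in DESeq2 (-0.40) and without wild-type replicate 2 (-0.47) or 3 (-0.52), Lipa (-0.56) and Smpd1 (-0.20) without wild-type replicate 2 (-0.76 and -0.29), and Neu1 (-0.13) and Manba (0.13) without wild-type replicate 1 (-0.17 and 0.21).

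**Figure D3:**
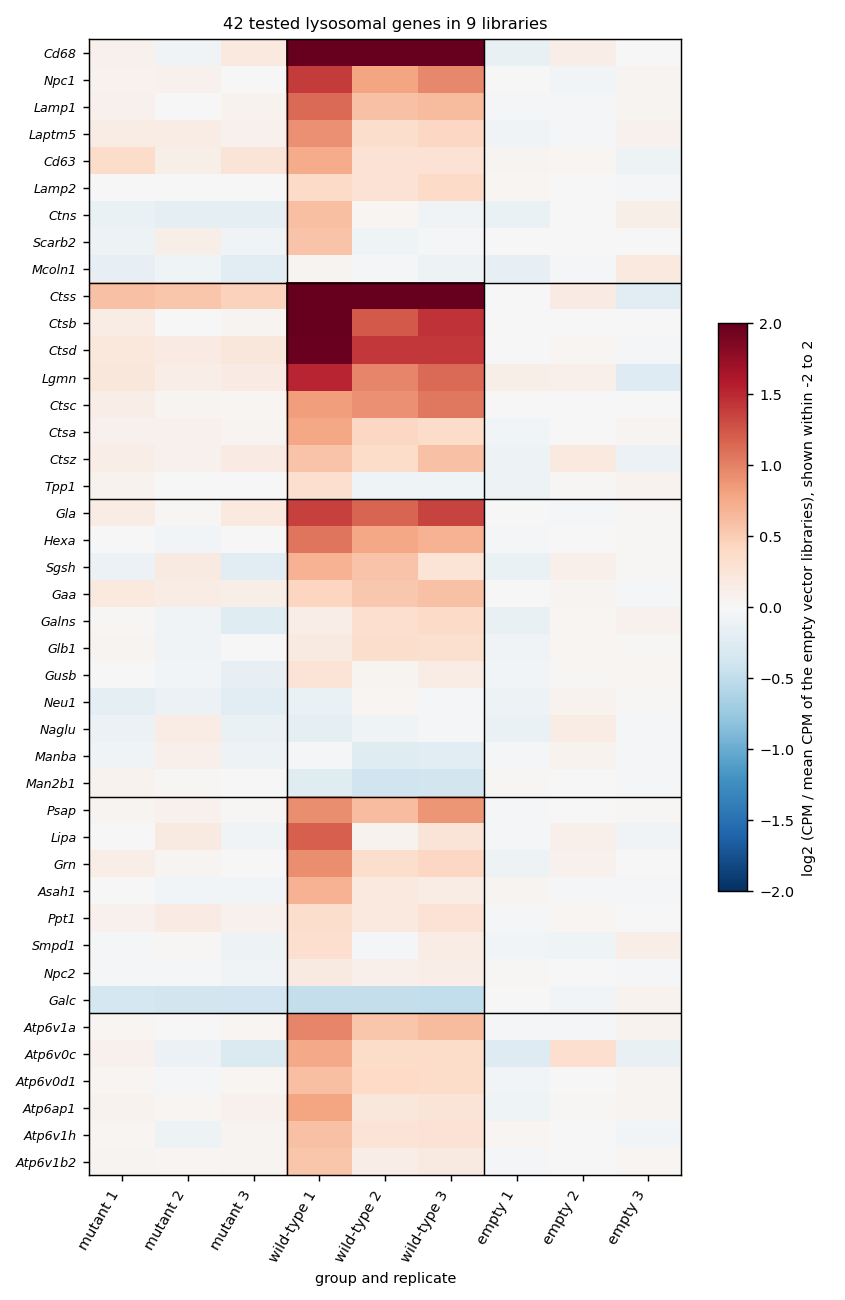
Log2 ratio of the CPM in each library to the mean CPM of the empty vector libraries, for the 42 tested lysosomal genes (rows, by role, then by wild-type fold change) in 9 libraries (columns); colours stop at 2, and 7 of 378 values lie above that. Most rows are red in the wild-type columns, and 33 of 42 are highest there in replicate 1, while Galc is blue in both Snai1 groups.

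Per length of transcript, Ctsd was the most abundant of the 45 in all groups, with mean levels of 638, 1718 and 557 CPM per kilobase in mutant, wild-type and empty vector libraries. Laptm5 came next (351, 482 and 322) and then Cd63 (288, 335 and 243), on the same scale and in the same order of groups. Below them, Psap, Grn, Lamp1, Npc2 and Man2b1 lay between 119 and 139 CPM per kilobase with empty vector, and Man2b1 held place 13 with wild-type Snai1 and place 8 with empty vector. The sum over all 45 genes averaged 7131 ± 113 CPM with mutant Snai1 and 11399 ± 1967 CPM with wild-type Snai1, against 6823 ± 97.6 CPM with empty vector (SD, n = 3). Ctsd made up 17.2 to 17.97%, 27.8 to 31.2% and 15.5 to 16.2% of this sum in mutant, wild-type and empty vector libraries. The ratio of wild type to empty vector was 1.67 for all 45 genes and 1.40 without Ctsd, and without wild-type replicate 1 these ratios were 1.51 and 1.28.

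Wild-type replicate 1 stood apart in these genes, but not only in them. It was the highest of the 3 wild-type libraries for 33 of the 42 lysosomal genes (78.6%), against 42.9% of all tested genes. It was the lowest for 6 of the 42 and for 5467 of all 12484 tested genes. It was also the highest for 75% of the other pump subunits and 66.7% of the autophagy genes described below. For other membrane proteins and other hydrolases this share was 62.9% and 61.3%, and for macrophage and monocyte markers 25%. The CPM of replicate 1 was a median of 1.22 times the mean of the other wild-type libraries in the lysosomal genes and 0.998 times in all tested genes. The median shift of the 42 genes from the empty vector mean was 0.65 in wild-type replicate 1 and 0.35 and 0.34 in replicates 2 and 3, on the log2 scale. In mutant replicates it was 0.05, 0.03 and 0.01. Without wild-type replicate 1, all 31 called genes were called again in wild type over empty vector, 29 higher and 3 lower in total, while the share of all tested genes was 29.9% higher and 28.8% lower. Mutant over wild type kept 29 of 30 calls and lost Atp6v0c.

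**Figure D4:**
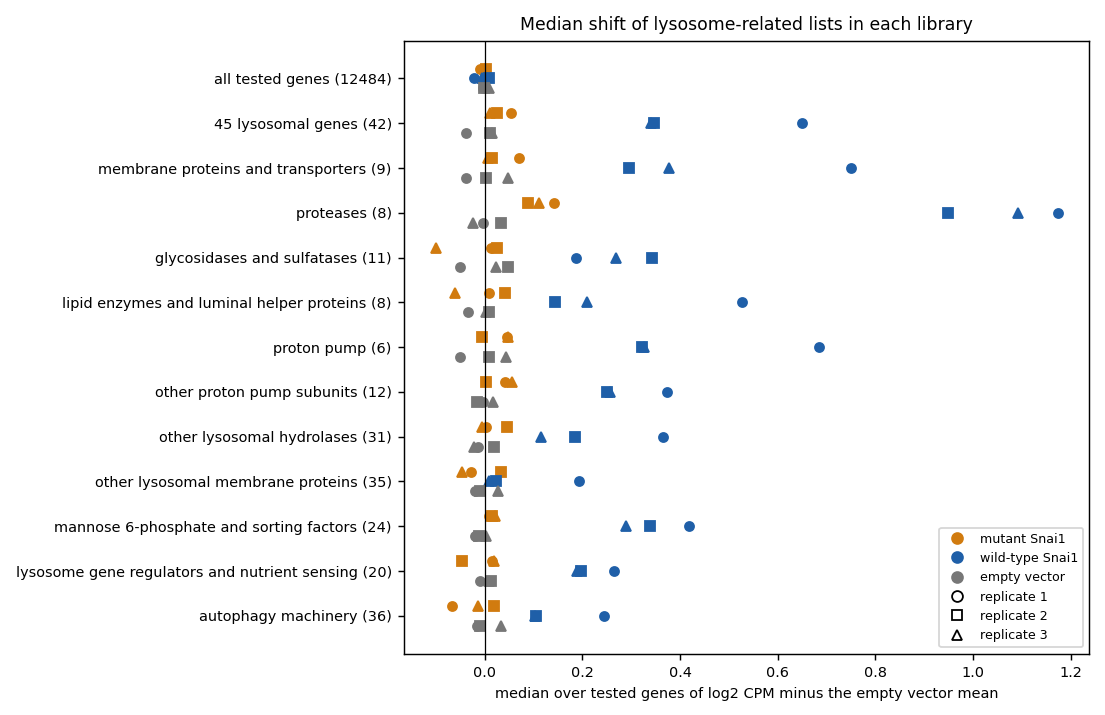
Median over tested genes (number in brackets) of log2 CPM minus the empty vector mean, for each of 9 libraries and each list of genes; colours mark the group and symbols the replicate number. For the 45 lysosomal genes the wild-type libraries lie at 0.65, 0.35 and 0.34, with replicate 1 farthest to the right, and mutant libraries lie at 0.01 to 0.05.

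Further genes of the lysosome came from 6 lists that hold none of the 45. Of the other pump subunits, 7 of 12 tested rose with wild-type Snai1 (25.2% of all tested genes) and none fell (24.3%), with a median of 0.33. Atp6v0a1, a membrane subunit, rose by 0.57 (SE 0.06), and the V1 subunits Atp6v1d and Atp6v1e1 by 0.35 and 0.30. Of the other hydrolases, 16 of 31 rose and 6 fell, with a median of 0.25. Gm2a, the activator protein that hands ganglioside GM2 to hexosaminidase, fell to 27.2, 33.7 and 37.4 CPM in wild-type libraries, against 136, 129 and 117 CPM in empty vector libraries, and measured 126, 126 and 127 CPM in mutant libraries. Its log2 fold change was -1.96 for wild type over empty vector (SE 0.10, adjusted p 3.02e-07, edgeR), opposite in sign to that of Hexa. Lyz2, the lysozyme of macrophages and neutrophils, rose by 5.13.

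Of the other lysosomal membrane proteins, 11 of 35 rose and 8 fell with wild-type Snai1, near the 25.2% and 24.3% of all tested genes, with a median of 0.10. The peptide transporter Slc15a3, which was near the floor with empty vector, rose by 6.54, while Cd1d1, which presents lipids, and the arginine sensor Slc38a9 each fell by 1.47 on the log2 scale. Of the mannose 6-phosphate and sorting factors, 18 of 24 rose and 3 fell, with a median of 0.29. Igf2r, the cation-independent mannose 6-phosphate receptor, measured 19.9, 13.4 and 21.7 CPM in mutant libraries and 71.0, 66.5 and 66.5 CPM in wild-type libraries, against 12.8, 14.1 and 17.5 CPM in empty vector libraries, a change of 2.20 (SE 0.17, adjusted p 4.78e-06, edgeR). The alternative sorting receptor Sort1 fell by 1.35, and Gga2, an adaptor of both receptors, rose by 0.52.

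Of the regulators of lysosomal genes and nutrient sensing, 10 of 20 rose (25.2% of all tested genes) and 2 fell (24.3%). Their median was 0.24. Mitf measured 9.32, 11.2 and 9.76 CPM in mutant libraries and 61.8, 47.6 and 50.7 CPM in wild-type libraries, against 9.52, 9.30 and 9.28 CPM in empty vector libraries, a change of 2.51 on the log2 scale (SE 0.12, adjusted p 1.08e-07, edgeR). The Rag GTPase genes Rragb and Rragc changed by -0.91 and 0.62. For Mitf's relatives, singled out after their values were seen, Tfe3 rose by 0.23 (SE 0.07, adjusted p 0.0215) and Tfeb changed by -0.14 (SE 0.09, adjusted p 0.208), both by the edgeR test. Of the autophagy genes, 16 of 36 rose and 2 fell, against the same shares of all tested genes, with a median of 0.21. The cargo receptor Sqstm1 rose by 0.92, the tethering factor Vps39 by 0.55 and the lipid scramblase Atg9a by 0.50. Each of these 6 lists had 0 genes called in mutant over empty vector by edgeR's quasi-likelihood test, and 0, 0, 2, 2, 1 and 0 genes with an unadjusted p under 0.05, in the order given.

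Markers of macrophages, monocytes and late neutrophils had higher summed levels in the wild-type libraries. The summed level of 20 macrophage and monocyte markers was 133 to 159 CPM in mutant libraries and 787 to 1414 CPM in wild-type libraries, against 134 to 162 CPM in empty vector libraries. Of the 12 tested markers, 9 rose (25.2% of all tested genes) and 3 fell (24.3%) with wild-type Snai1. The filter keeps a gene that is counted only in the wild-type libraries and removes one that is low in every group. Counts among the tested markers, also those of late neutrophils, are therefore partly set by the filter. C1qa, Vsig4, Timd4 and Clec4f were listed at 0 in all 9 libraries. The sum in wild-type replicates 1 to 3 was 787, 1073 and 1414 CPM, lowest in replicate 1. The median shift of the 12 tested markers from the empty vector mean was 3.19, 3.07 and 3.73 on the log2 scale, lowest in replicate 2. The 10 late neutrophil markers summed to 1.74 to 2.853, 58.4 to 135 and 1.65 to 3.11 CPM in mutant, wild-type and empty vector libraries. Of their 4 tested members, Lcn2 and Mmp8 rose with wild-type Snai1, while Ltf (-0.18) and Cxcr2 (-0.58) did not pass the test, and 2 of the 10 exceeded 10 CPM in a group. The 14 progenitor markers summed to 9164 to 9517, 9081 to 10708 and 9342 to 9525 CPM in the same order, a sum of which Kit is a large part. With wild-type Snai1, 3 of the 14 rose (21.4%), 6 fell (42.9%) and 5 did not pass, against 25.2% higher and 24.3% lower among all tested genes. Their log2 fold changes ran from -0.95 for Runx1 to 1.01 for Lmo2. Of the mast cell markers 3 were tested, of which Cpa3 rose (0.29), Hdc fell (-1.92) and Cma1 did not pass (1.27). Of 3 tested erythroid markers 2 fell, among them Klf1 (-1.29), and Alas2 did not pass (0.24), with a median of -0.77. The median level of these 3 was 1.11 CPM over all libraries, and no erythroid marker exceeded a mean of 10 CPM in any group. The only tested gene of the B and T cell list fell (-3.16), at a mean of 0.79 CPM over all libraries. Pdgfrb, the only tested gene of the fibroblast list, fell (-0.39). Lyz2 belongs to both the hydrolase and the macrophage list, and Cd68 is also in use as a macrophage marker. The part of macrophage-like or neutrophil-like cells in the lysosomal changes was not tested.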

How the data were processed

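RNA of 9 HPC7 libraries was sequenced after TruSeq stranded mRNA preparation. Per the submitters' processing notes, the authors used featureCounts and mm10 to obtain the deposited raw counts per Entrez gene; limma 3.29.12 and edgeR 3.15.0 are listed too. The aligner, annotation and strand setting are not given in the sources used here. Reads of overlapping or antisense genes therefore cannot be assigned with certainty; 11 of the 45 genes overlap another gene.

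Identifiers were matched to RefSeq GRCm38.p6, which named 25275 of 27179. In R 4.3.3 with edgeR 4.0.16, low counts were removed with filterByExpr, libraries scaled with TMM, and all 9 libraries fitted together by robust quasi-likelihood without a replicate term. A gene was called at a Benjamini-Hochberg adjusted p under 0.05 over 12484 genes, and the fit was tested on simulated data. Log2 CPM used a prior count of 2. Counting floors cover counting error only. The genes and lists were chosen with earlier results of these data known. Per-library values are printed for up to 4 genes per role, and names given for up to 3 per other list, with the smallest adjusted p in wild type over empty vector; 1 gene so chosen is not reported here. Alternatives were other scalings and filters, DESeq2 1.42.0, limma-voom in limma 3.58.1, fits of only the groups compared, a replicate block and leaving out each library.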

Additional observations from a re-analysis of the deposited data

How the results depend on the processing

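Wild type over empty vector kept its counts within 1.5 times under every alternative: leaving out 1 library gave 5106 to 7410 genes called, 25 to 31 lysosomal genes higher, 2 to 3 lower and medians of 0.35 to 0.51. For mutant over wild type these ranges were 4978 to 7307 genes called, 1 to 2 lysosomal genes higher, 24 to 34 lower and medians of -0.48 to -0.32. Upper quartile scaling gave 2 higher and a median of -0.33, and it moved the median of all genes to 0.07. For mutant over empty vector, 1 gene was called with all 9 libraries, 10 by DESeq2, 2 by limma-voom, 30 from the 2 groups alone and 1 to 62 with 1 library left out. Lysosomal genes called lower there numbered 1 by DESeq2, 1 from the 2 groups alone and 0 to 1 with 1 library left out, each time Galc, and 0 to 1 were called higher (Ctsd). The cause of these differences was not tested.

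Of the values of the 42 genes in wild type over empty vector and mutant over wild type, 1350 kept direction and side of the threshold, 51 lost a call, 18 gained one and 9 turned direction without being called. Among them was Tpp1 in mutant over wild type, 0.020 under upper quartile scaling; the rest came from leaving out 1 library, with these ranges. For wild type over empty vector they were -0.064 to 0.30 for Scarb2, -0.014 to 0.36 for Ctns, -0.087 to 0.15 for Tpp1 and -0.11 to 0.083 for Mcoln1. For mutant over wild type they were -0.31 to 0.052 for Scarb2, -0.12 to 0.11 for Tpp1 and -0.022 to 0.12 for Naglu. The lowest Scarb2, Ctns and Tpp1 values over empty vector came without wild-type replicate 1.

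With the replicate block, 5886 genes were called in wild type over empty vector, with 28 lysosomal genes higher, 2 lower and a median of 0.45; Npc2 lost its call (adjusted p 0.0584, edgeR). Mutant over empty vector had 1 gene called, and mutant over wild type had 5732, with 28 lysosomal genes lower; Ppt1 lost its call (adjusted p 0.0519, edgeR). Same-numbered libraries correlated at -0.09 to 0.21 after removal of group means, with 2 of 9 pairs above 0.1, and 4 of 9 libraries correlated best with their own number, so the numbers are not shown to pair the libraries. With 3 libraries a group, genes near the floor such as Arsb cannot be compared firmly.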

Other observations

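Gpnmb, a glycoprotein of lysosome-related organelles and one of the other membrane proteins, was singled out after its values were seen. It measured 0.510, 0.499 and 1.02 CPM in mutant libraries and 92.6, 38.6 and 113 CPM in wild-type libraries, against 0.213, 0.193 and 0.215 CPM in empty vector libraries. The log2 fold change of wild type over empty vector was 8.58 (SE 0.61, adjusted p 9.62e-06, edgeR quasi-likelihood test). The fitted value rests on a level near the floor of 3 counts in the empty vector libraries. Wild-type replicate 2 was the lowest of its group, and no wild-type library overlapped any other library.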
